A study of Mus musculus with 2 samples.

Results

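The Prox1 locus on mouse chromosome 1 was examined with Rad21 ChIP-chip as a tiled stretch holding Prox1, Smyd2 and most of Rps6kc1. Members were the 1 kb windows of the stretch (1.00 Mb that ends at position 192699975 of mm9, windows assigned by probe midpoint) with at least 3 probes. These were 946 of the 14947 windows on the array, and 54 further windows of the stretch held too few probes. Rad21 was measured in RAG cells, a renal adenocarcinoma line of mouse that serves as the Pax6-OFF line of the study. The only group was RAG Rad21 with 2 arrays, numbered replicate 1 and replicate 2, each from its own T75 flask of the line, and nothing in the labels sets the flasks apart by genotype or treatment. ChIP DNA was hybridised against input DNA, each amplified and reamplified across the genome, in the dyes Cy5 and Cy3, with no dye swap, and an array of an unrelated antibody was not analysed here. Each array lay on its own slide, so the spread between replicates includes the spread between slides.

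Rad21 is a subunit of cohesin, the ring complex that holds sister chromatids together and extrudes chromatin loops in interphase. Extruding cohesin is halted at bound CTCF, a zinc finger protein whose asymmetric motif makes the halt depend on orientation, so cohesin peaks often mark loop anchors and domain borders. Prox1 encodes a homeobox transcription factor needed for lymphatic endothelium, lens, liver and other tissues, and it lies in a long stretch with few genes. Smyd2 encodes a lysine methyltransferase and Rps6kc1 a protein with a PX domain and a kinase-like domain. Ptpn14, whose 3′ end enters the stretch, encodes a tyrosine phosphatase.

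Values are log2 ratios of Cy3 over Cy5, centred on the median of all probes of an array. The labels place the input in Cy3 and the ChIP DNA in Cy5, whereas the value table deposited for the same arrays runs as Cy3 over Cy5. The labels and the table thus do not settle which dye carried the ChIP DNA, and results are given by dye. How windows with the CTCF motif fell by dye is given below. With the sign turned, every value below keeps its size. The channels of the locus were bright. The median Cy3 spot signal of the locus probes was 54.5 times background on replicate 1 and 74.8 times on replicate 2, and the Cy5 signal was 23.3 and 30.3 times background.

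Rad21 ChIP-chip left 8 discrete regions higher in Cy3 across the locus and no region higher in Cy5. Each region is named here as a site, numbered from left to right on the chromosome. Sites 1 and 2 lay within Smyd2, site 3 just upstream of the Smyd2 start, sites 4 and 5 in the intergenic stretch between Smyd2 and Prox1, and sites 6, 7 and 8 within Rps6kc1. No site lay in Prox1, and the nearest summit was -124.6 kb from its start. A region is a run of at least 3 probe positions at which the running median over both arrays within 400 bp passed a threshold set on all probes of the array. This threshold was 0.64 for Cy3 and -1.10 for Cy5, so the sides were not held to the same size, and at the Cy3 threshold on both sides 4 regions were higher in Cy5. All 8 sites were called on each array alone, against 152 of the 202 regions elsewhere on the array. The regions were called from both arrays together, so recurrence on each array alone is not independent support. Together they covered 9187 bp, 0.919% of the tiled span, and were between 660 bp and 1631 bp long.

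**Figure D1:**
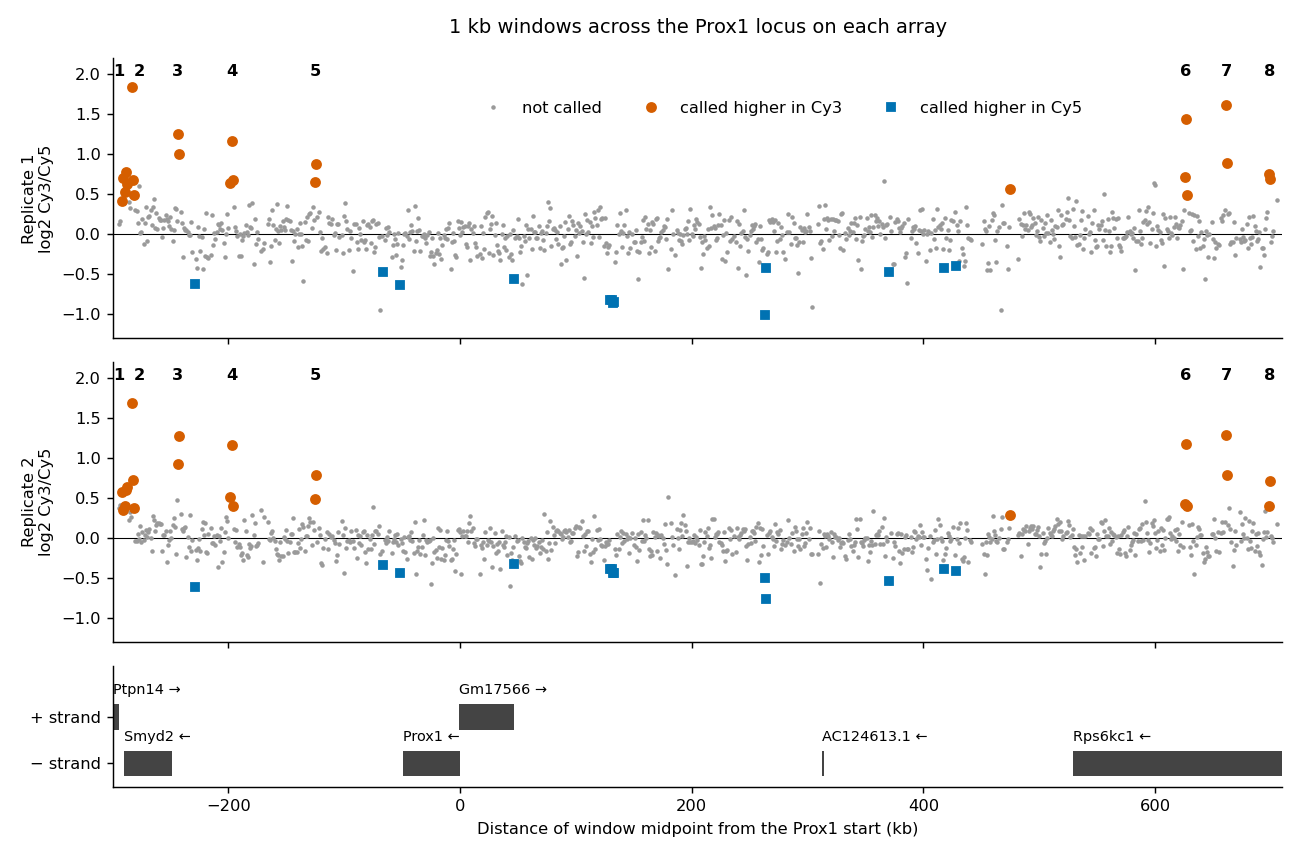
Log2 Cy3/Cy5 of each 1 kb window (vertical axis) against its distance from the Prox1 start in kb (horizontal axis), for replicate 1 (top) and replicate 2 (middle), with gene spans and strands below. Orange circles and blue squares mark windows called higher in Cy3 and in Cy5 by the test described below, and the bold digits 1 to 8 mark the sites, which sit at both ends of the locus on both arrays.

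The sequences at the sites are shown because each site held 1 match to the core of the CTCF motif, the factor at which cohesin is halted. The core has 12 positions, was searched on both strands with at most 1 mismatch, and was taken from general knowledge of the factor. Of the 202 regions elsewhere on the array, 122 (60.4%) held such a match inside. Each line gives the match in capitals with 30 bases on either side, read 5′ to 3′ on the strand of the match, from the reference genome of the files' build.
site 1 (chr1:191706952-191707023, minus strand): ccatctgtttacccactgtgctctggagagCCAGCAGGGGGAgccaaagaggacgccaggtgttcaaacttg
site 2 (chr1:191711543-191711614, plus strand): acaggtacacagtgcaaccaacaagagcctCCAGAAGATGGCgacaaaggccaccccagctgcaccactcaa
site 3 (chr1:191751711-191751782, minus strand): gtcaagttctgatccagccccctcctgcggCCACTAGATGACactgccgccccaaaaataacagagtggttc
site 4 (chr1:191797083-191797154, minus strand): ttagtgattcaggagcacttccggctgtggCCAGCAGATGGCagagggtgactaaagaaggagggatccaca
site 5 (chr1:191869835-191869906, plus strand): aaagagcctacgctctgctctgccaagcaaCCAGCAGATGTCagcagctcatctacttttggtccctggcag
site 6 (chr1:192621217-192621288, minus strand): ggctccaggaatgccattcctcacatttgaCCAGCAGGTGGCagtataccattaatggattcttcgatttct
site 7 (chr1:192655836-192655907, plus strand): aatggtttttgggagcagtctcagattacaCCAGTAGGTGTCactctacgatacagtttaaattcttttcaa
site 8 (chr1:192692870-192692941, minus strand): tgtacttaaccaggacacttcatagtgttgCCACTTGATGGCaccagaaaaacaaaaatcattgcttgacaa
The matches at sites 4 and 6 had no mismatch and those at the other sites had 1. From left to right the cores lay on the minus, plus, minus, minus and plus strand (sites 1 to 5) and then on the minus, plus and minus strand (sites 6 to 8). The core of site 5 on the plus strand and that of site 6 on the minus strand thus point towards each other across Prox1. Contacts between the sites were not measured here. The match lay 1 bp from the summit at site 6 and 71 bp to 389 bp from it at sites 1, 2, 4, 5, 7 and 8. At site 3 it lay 569 bp from the summit, still inside the region.

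Site 2, in an intron of Smyd2, was the highest in the locus. Its running median reached 1.94 at the summit, chr1:191711298, and the region spanned chr1:191711209-191712792. The 1 kb window at its summit stood at 1.84 on replicate 1 and 1.68 on replicate 2 (mean 1.76 ± 0.11, SD, n = 2), the 19th highest window on the array by its mean. Its limma adjusted p was 8.7e-05. Of the 24 probes in the region, 24 were above 0 on replicate 1 and 23 on replicate 2, counts that the call of the region from these probes largely fixes. Site 1, in another intron of Smyd2, lay 4.24 kb to the left (chr1:191706552-191707331) and was the lowest of the 8. Its window read 0.78 on replicate 1 and 0.60 on replicate 2 (mean 0.69 ± 0.13, SD, n = 2, limma adjusted p = 0.00667). All 13 of its probes were above 0 on both arrays, which the region call again largely fixes.

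Site 3 was intergenic, with its summit 4.94 kb upstream of the Smyd2 start (chr1:191751149-191752353). Its highest window was 1.01 on replicate 1 and 1.27 on replicate 2 (mean 1.14 ± 0.18, SD, n = 2, limma adjusted p = 0.000612). This was the only site whose highest window was higher on replicate 2 by more than 0.1. The window with the Smyd2 start itself stood at -0.08 and 0.16 and did not pass the test (mean 0.04, limma adjusted p = 0.854). Near the 5′ end of Smyd2 the signal was thus highest upstream of the start.

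Sites 4 and 5 were the last before Prox1. Site 4 (chr1:191796729-191798359) had a window at 1.17 on replicate 1 and 1.16 on replicate 2 (mean 1.16 ± 0.01, SD, n = 2, limma adjusted p = 0.000322), the closest pair of values among the sites. Site 5 (chr1:191869733-191870680) was lower, at 0.87 and 0.79 (mean 0.83 ± 0.06, SD, n = 2, limma adjusted p = 0.00212). Its summit lay at -124.6 kb from the Prox1 start, beyond the 3′ end of the gene, since Prox1 is transcribed from right to left.

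The remaining 3 sites lay in Rps6kc1, which is also transcribed from right to left and whose start is beyond the tiled stretch. Site 6 (chr1:192620805-192622064) had its summit in an exon that the annotation gives only for a transcript with a retained intron. Its window stood at 1.44 on replicate 1 and 1.17 on replicate 2 (mean 1.31 ± 0.19, SD, n = 2, limma adjusted p = 0.000321). Site 7, in an intron (chr1:192655394-192656512), had the highest mean over its whole region, 1.57 on replicate 1 and 1.46 on replicate 2 (mean 1.52 ± 0.07, SD, n = 2). Its highest window read 1.62 and 1.28 (mean 1.45 ± 0.24, SD, n = 2, limma adjusted p = 0.000277). Site 8, in another intron (chr1:192692726-192693385), was lower, with a window at 0.69 and 0.71 (mean 0.70 ± 0.02, SD, n = 2, limma adjusted p = 0.00498). The 3 summits were spaced 34.8 kb and 37.2 kb apart.

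**Figure D2:**
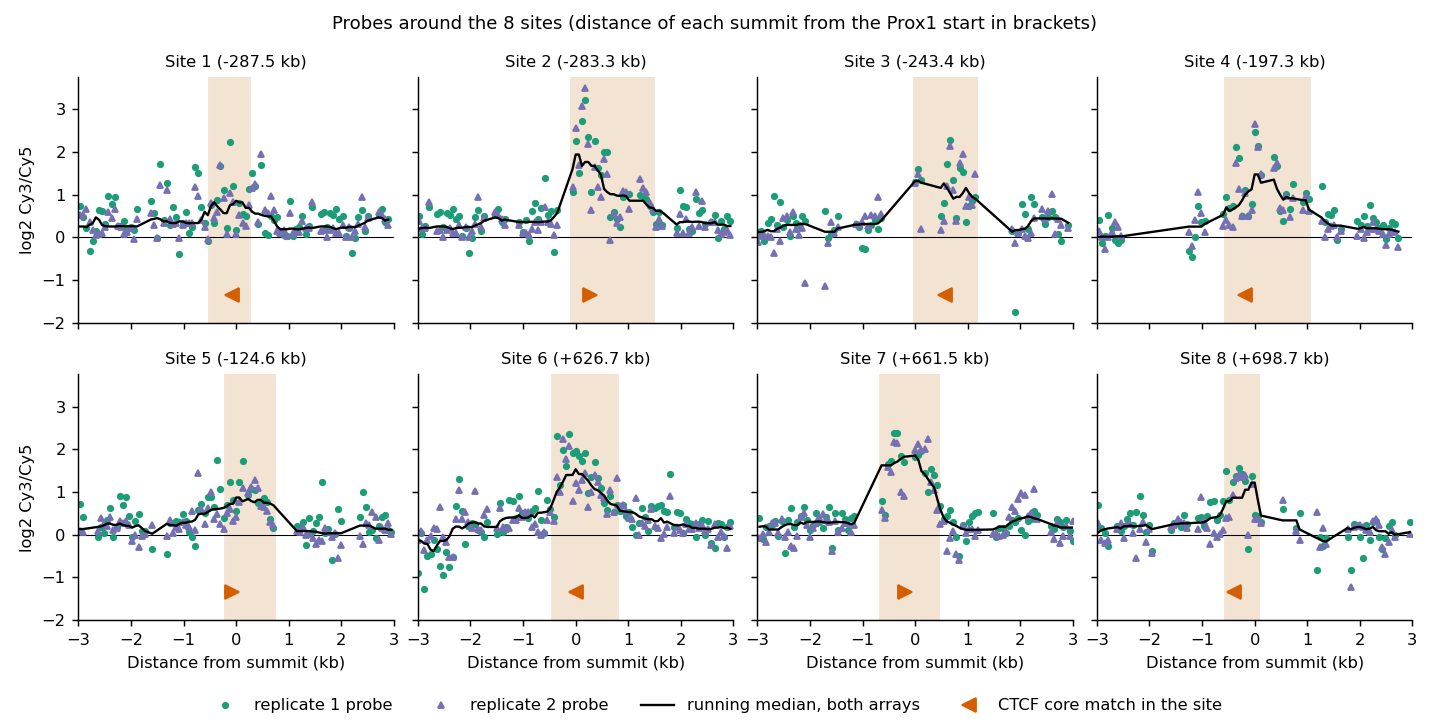
Log2 Cy3/Cy5 of probes (vertical axis) against distance from the summit in kb (horizontal axis) at the 8 sites, with replicate 1 as circles, replicate 2 as triangles, the running median over both arrays as a line and the called region shaded. The orange arrowhead gives the position and strand of the CTCF core match, and the summits of the running median range from 0.85 at site 1 to 1.94 at site 2.

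None of the 137 probes in the sites had another exact copy in the genome. In Cy5, 2 of them were saturated on replicate 1 and 0 on replicate 2, and in Cy3 none was saturated on either array. In height the sites resembled the other regions of the array, with a median summit of 1.40 against 1.29 for the 202 regions elsewhere, and no test was made of that difference.

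Over all windows of the locus, 23 were higher in Cy3 in limma's test of the mean of both arrays against 0, with Benjamini-Hochberg adjustment over the 14947 windows at 0.05. That is 2.43% of the 946 windows, below the background of 3.86% over the whole array. On the other side 13 windows (1.37%) were higher in Cy5, against a background of 5.86%. The Cy3 calls had a median of 0.63 and 6 exceeded 1 log2 unit. The Cy5 calls had a median of -0.59 and 0 passed -1. The Cy3 share of the calls, 63.9%, was 100% with trend and robust eBayes, 76.7% with loess normalization and 43.9% with centring on the mode, which lowers every value by 0.12 on replicate 1 and 0.035 on replicate 2. Of the 23 windows, 18 overlapped the sites. Of the other 5, 4 lay at the left end beside sites 1 and 2 (at -292.1, -291.1, -289.1 and -281.1 kb from the Prox1 start) with means between 0.43 and 0.53. The fifth stood alone at 474.9 kb, with 0.56 on replicate 1 and 0.29 on replicate 2 (limma adjusted p = 0.0496). By the region threshold of 0.64 alone, 11 windows of the locus stood above it (background 2.27%).

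Most windows higher in Cy3 had the larger value on replicate 1. The call uses the values of both arrays, so nothing is read from their closeness in called windows or from the scatter of uncalled windows around 0. Across the 946 windows Pearson r was 0.585 and Spearman rho 0.393, a description over windows of the same arrays, which are not independent replicates. Both were lower than over the whole array (0.687 and 0.541), and r in the other 10 tiled segments ranged from 0.607 to 0.787. The median SD of a window between the arrays was 0.10.

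**Figure D3:**
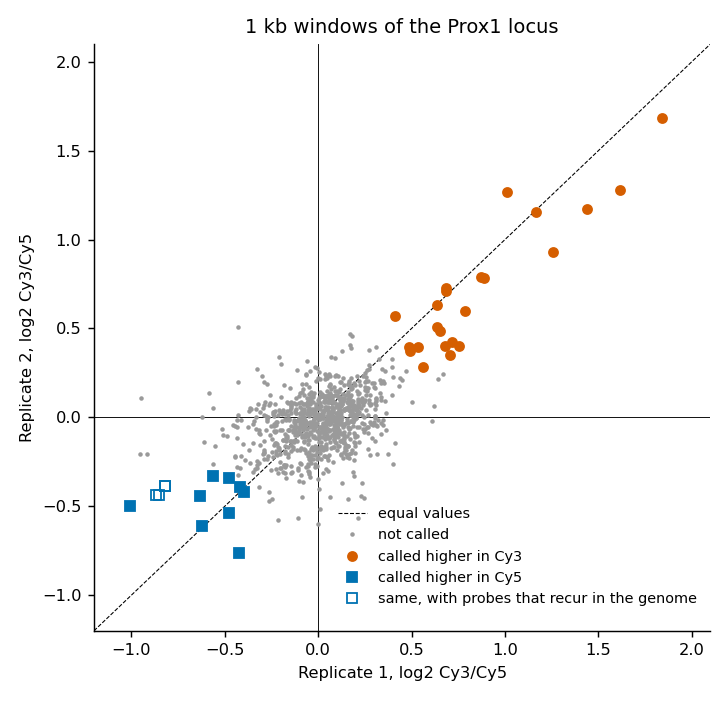
Each point is a 1 kb window of the locus, with its log2 Cy3/Cy5 on replicate 1 (horizontal) and replicate 2 (vertical) and a dashed line of equal values. The windows called higher in Cy3 (orange circles) lie mostly below the line and reach 1.84 and 1.68, and the open blue squares are the 4 Cy5-side windows with probes that recur in the genome.

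Prox1 itself carried no called window on either side. The window with the Prox1 start stood at -0.01 on replicate 1 and 0.07 on replicate 2 (mean 0.03, limma adjusted p = 0.877). The same window holds the start of Gm17566, a lincRNA on the opposite strand whose current RefSeq symbol is Prox1os. Windows of 1 kb centred on the starts gave 0.05 for Prox1 and 0.11 for Gm17566, and neither passed the test. Of the 49 windows of the Prox1 gene, 0 were called higher in Cy3 and 0 in Cy5, and their highest mean was 0.27. The mean over these windows was -0.06 on replicate 1 and -0.10 on replicate 2. The 45 windows with their midpoint in Gm17566 beyond the Prox1 start averaged -0.05 and -0.08, with no call. Over all windows of the array 3.86% were called higher in Cy3 and 5.86% in Cy5. At these shares few calls would fall among 45 or 49 windows, so nothing is read from the counts of 0. The window over the 3′ end of the last exon of Gm17566, with its midpoint just outside the gene, was higher in Cy5, at -0.56 on replicate 1 and -0.33 on replicate 2 (limma adjusted p = 0.0383). AC124613.1, a small RNA gene of the annotation in the intergenic stretch, had a start window at -0.19 and -0.13 that did not pass the test (limma adjusted p = 0.348).

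Between site 5 and site 6 no region was called over 750.1 kb (chr1:191870681-192620804), a span that takes in all of Prox1, Gm17566 and AC124613.1 and the 3′ part of Rps6kc1. The next longest gap between neighbouring sites was 71.4 kb. In the other 10 segments, which are 0.40 Mb to 4.00 Mb long, the longest gap between regions ranged from 107 kb to 523 kb. Of the 709 windows in the span, 2 were higher in Cy3, the lone window at 474.9 kb and a window that runs into site 6, a count that the choice of the span largely fixes, and 12 were higher in Cy5. Each array alone also left the span empty, though the span was chosen from both arrays together. In 12 of 16 alternative settings it held no region. In the other 4 it held 1 or 2 short ones, at 365.8 kb (normexp and loess) and 599.2 kb (loess, GC correction and a looser threshold), and the longest gap fell to as little as 490 kb. The window at 365.8 kb read 0.67 and 0.24 and just missed the test (limma adjusted p = 0.0568), and 2 of its 6 probes recur elsewhere in the genome. The window at 599.2 kb, in an intron of Rps6kc1, read 0.64 and 0.22 (limma adjusted p = 0.0665).

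The density of regions was 8.00 per Mb, against 9.0 to 42.5 per Mb in the other segments and 12.3 per Mb over the array outside the locus. The count of 8 regions was 11 with normexp, 12 with loess and 13 with the GC correction. The other segments were not recounted under these settings, so the order of the segments is given without a test and for the main setting alone.

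On both arrays the mean level of the windows was lower in each stretch than in the stretch before it, from the left edge to Prox1, without a test of these steps. The 4 windows between the edge and Smyd2 averaged 0.35 on replicate 1 and 0.43 on replicate 2, and 2 of them were called higher in Cy3. The 42 windows of Smyd2 averaged 0.29 and 0.16, with 6 called. Without the 4 windows that overlap a site, Smyd2 still averaged 0.22 and 0.09, and 32 of these 38 windows were above 0. Smyd2 was also the stretch with the highest GC content, 51.4% against 46.9% over the locus. With the trend on GC removed, its 42 windows, those over sites included, averaged 0.20 and 0.12. Between Smyd2 and Prox1 the mean was near 0 (0.02 and 0.00), with 7 of 187 windows higher in Cy3, all over sites 3, 4 and 5, and 3 higher in Cy5. The long intergenic stretch from Gm17566 to Rps6kc1 lay at -0.00 and -0.03 over 450 windows, with 1 higher in Cy3 and 10 higher in Cy5. The tiled part of Rps6kc1 averaged 0.07 and 0.03 over 169 windows, with 7 higher in Cy3 and 0 higher in Cy5.

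**Figure D4:**
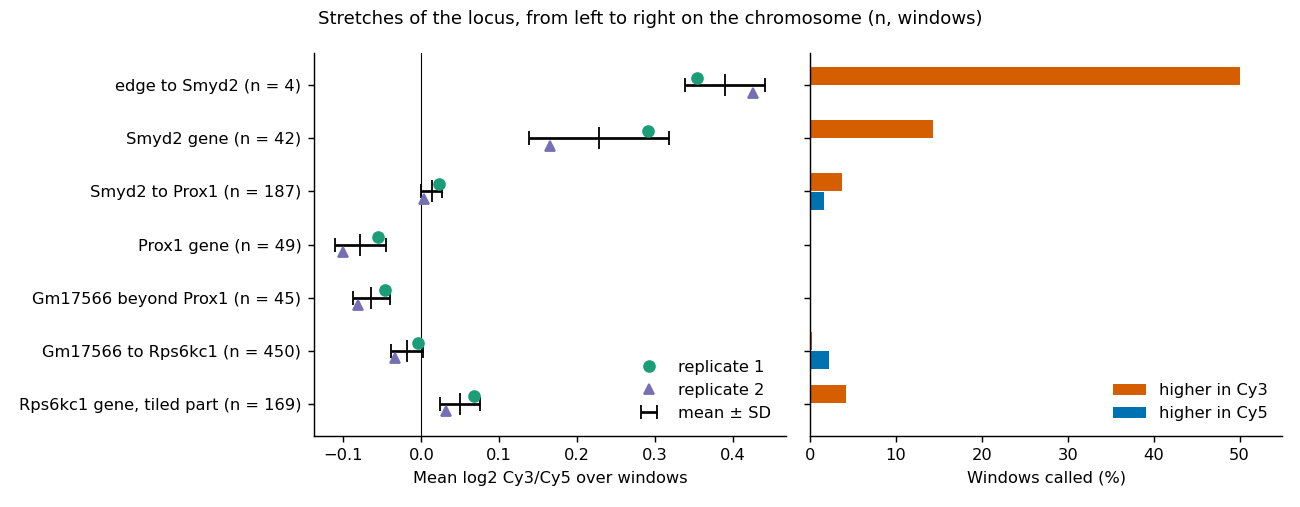
Left, mean log2 Cy3/Cy5 over the 1 kb windows of 7 stretches of the locus for replicate 1 (circles) and replicate 2 (triangles), with bars for the mean ± SD of the 2 arrays. Right, percent of those windows called higher in Cy3 (orange) and in Cy5 (blue). The Cy3 share runs from 50.0% of 4 windows at the left edge to 0% of 49 windows in the Prox1 gene.

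By annotation, 7 of 55 windows that overlap an exon (12.7%) were called higher in Cy3, against 6 of 256 intron windows (2.34%) and 10 of 635 intergenic windows (1.57%). The 7 called exon windows lay in Smyd2 and Rps6kc1, beside or over sites 1, 2 and 6, so neighbouring windows of the same site are counted apart. The share of exon windows called over the whole array was not computed, and no preference for exons is read from these counts. The summits of 4 of the 8 sites lay in introns, 3 in intergenic sequence and 1 in the exon of site 6.

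The CTCF core occurred far more often than the sites did. It matched at 97 places in the locus, 37 on the plus and 60 on the minus strand, of which 8 were in the sites. A single tandem run in an intron of Rps6kc1 held 19 of the matches, all on the minus strand, so the split by strand leans on that run. Of the 89 other matches, 1 lay in a window higher in Cy3, at the left edge. By windows, 71 of 946 (7.51%) held a match, near the 7.72% of the whole array. Of these 71, 9 (12.7%) were higher in Cy3, against 14 of the 875 without a match (1.60%). On the whole array the shares were 16.6% and 2.79%. None of the 13 windows higher in Cy5 held a match, and on the whole array 4.11% of such windows did, so a count of 0 here is near the background. With the core read backwards, as a control pattern of the same composition, 18 windows held a match and 0 of them were higher in Cy3. On the whole array 8 of 157 windows with the reversed core (5.10%) were higher in Cy3, so the 18 windows are too few to read.

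The long span between sites 5 and 6 was not bare of the core, with 47 matches in 42 windows. The span was defined by the absence of regions, so nothing is read from the lack of calls at these matches. Over all 62 windows with a match that were not higher in Cy3, the means ran from -0.34 to 0.43. The tandem run of 19 matches in an intron of Rps6kc1, between sites 7 and 8, was also without a call.

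**Figure D5:**
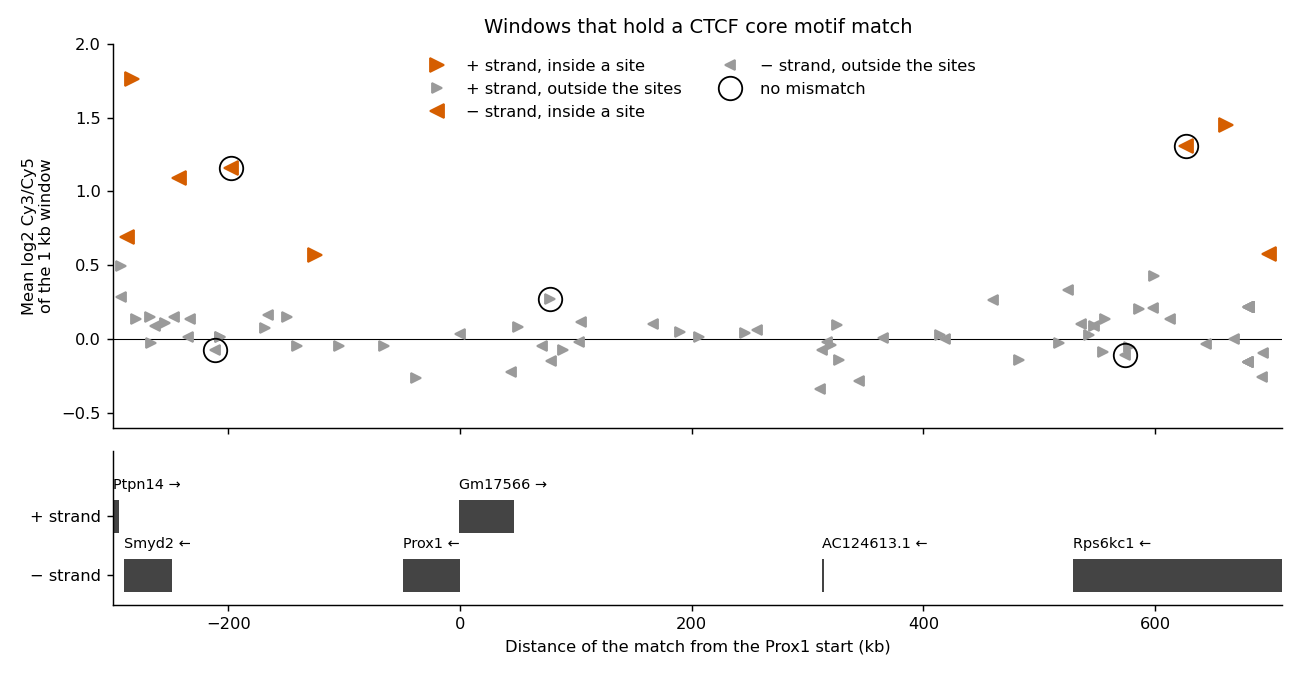
Mean log2 Cy3/Cy5 of both arrays in the 1 kb window of each CTCF core match (vertical axis) against the distance of the match from the Prox1 start in kb (horizontal axis). Arrowheads point along the strand of the match, orange marks matches inside the 8 sites, grey those outside, and circles mark the 5 matches without a mismatch, of which 2 are in sites.

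Matches without mismatch were found with and without a call. Of 5 windows with such a match, those of sites 4 and 6 were higher in Cy3 and the other 3 did not pass. On the whole array 44 of 78 windows with such a match (56.4%) were higher in Cy3 and 0 were higher in Cy5. The 3 uncalled matches and the match at the Prox1 start are shown beside the sites, in the same layout.
match at -211.1 kb (chr1:191783453-191783524, minus strand): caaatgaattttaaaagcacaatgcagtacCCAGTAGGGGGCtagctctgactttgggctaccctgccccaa
match at 0.3 kb (chr1:191994848-191994919, minus strand): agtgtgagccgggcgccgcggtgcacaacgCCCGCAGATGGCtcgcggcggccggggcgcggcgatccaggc
match at 78.0 kb (chr1:192072499-192072570, plus strand): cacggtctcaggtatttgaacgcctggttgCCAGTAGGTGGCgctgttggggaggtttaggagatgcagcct
match at 574.2 kb (chr1:192568768-192568839, minus strand): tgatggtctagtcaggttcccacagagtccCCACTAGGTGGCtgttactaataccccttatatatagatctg
The match at -211.1 kb, between sites 3 and 4, lay in a window at -0.06 on replicate 1 and -0.09 on replicate 2 (limma adjusted p = 0.671). The match at 78.0 kb, to the right of Gm17566, lay in a window at 0.33 and 0.21 (limma adjusted p = 0.129), above 0 on both arrays. The match at 574.2 kb, in Rps6kc1, lay in a window at -0.03 and -0.18 (limma adjusted p = 0.546). The match at 0.3 kb, upstream of the Prox1 start, had 1 mismatch and lay in the flat start window described above.

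The windows higher in Cy5 were scattered between the sites and were smaller. The lowest stood 262.9 kb from the Prox1 start in the intergenic stretch, at -1.01 on replicate 1 and -0.50 on replicate 2 (mean -0.75 ± 0.36, SD, n = 2, limma adjusted p = 0.0135), and its neighbour on the right was called as well. A block of 4 consecutive windows (chr1:192124000-192127999) lay between -0.82 and -0.87 on replicate 1 and between -0.38 and -0.44 on replicate 2. In this block 30 of 67 probes had another exact copy in the genome, out of 86 such probes among the 11100 of the locus, so its signal cannot be assigned to this place alone. No other called window of the locus, on either side, held such a probe. The window at -229.1 kb, between sites 3 and 4, was even on the arrays (-0.62 and -0.61, mean -0.62 ± 0.01, SD, n = 2, limma adjusted p = 0.00876). Windows higher in Cy5 had a mean GC content of 39.5%, those higher in Cy3 47.8% and the rest 46.6%, and the GC correction gave 7 windows higher in Cy5. The part of base composition in these calls was otherwise not tested. With eBayes set to a trend and robust estimate, 0 windows of the locus were higher in Cy5 by limma, although 38 on that side had an unadjusted p under 0.05, and 28 were higher in Cy3.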

How the data were processed

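The locus, its windows and the lists used here were chosen with earlier results of these data known. The spot intensities deposited by the authors were the output of Feature Extraction 10.5.1.1, with background subtracted after spatial detrending and 1 linear dye factor per channel, per the file headers. The files also hold quality marks and log10 ratios that the same software computed, deposited by the authors and not used for any value. Probe positions are in mm9, the build of the reference genome and of the GENCODE annotation used. The methods name Ringo for the table of log2 values deposited by the authors. Sorting probe numbers as text and dropping the first 3 aligned its rows, with Pearson r of 0.964 and 0.962 to a running median of log2 Cy3/Cy5 within 300 bp, so they are smoothed, and they served as an alternative.

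Log2 Cy3/Cy5 was taken from the processed intensities and shifted so that the median probe of an array was at 0. After 27 outlier spots and all control spots were dropped and repeated spots averaged, 170542 probes remained, 11100 of them in the locus. They are 60 bp long, and their median spacing is 60 bp. Windows of 1 kb held 3 to 17 probes. limma 3.58.1 (R 4.3.3; lmFit, eBayes) tested each window against 0, two-sided, over all 14947 windows. Since 2 flasks give 1 residual degree of freedom, the p-values lean on the variance shared across windows, and the number of arrays limits the precision. Regions were called as Ringo does, with new code (running median within 400 bp, at least 5 values, threshold at the 0.99 quantile of a null made by mirroring values about the mode, joined under 600 bp). Normexp (offset 50) and no background correction used the median spot signals. Other exact copies of a probe were sought on both strands of the whole genome. Named were all sites, the windows at gene starts, the 10 highest Cy3 windows and the 5 lowest Cy5 windows, and any other window named was chosen after its values were seen. Window and region calling were tested on simulated data. The window test recovered 200 of 200 planted windows and also called 36 others among 14947. The region call recovered 199 of 200 planted regions but returned 488 regions, more than were planted, so a region call alone is weak support. Other steps ran in Python 3.11.15 with scipy 1.17.1, pandas 2.3.3 and numpy 2.4.6.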

Additional observations from a re-analysis of the deposited data

How the results depend on the processing

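All 8 sites were found in 15 of 16 alternative settings of the region call, and the stricter null quantile lost sites 1 and 5. The number of regions higher in Cy3 rose to 13 with the GC correction, and was 8 without either replicate. Regions higher in Cy5 numbered 0, but 25 at a null quantile of 0.95 and 4 at a common threshold, and 0 to 1 without a replicate. Windows higher in Cy3 numbered 18 to 34 in the alternatives other than the deposited values, which gave 15. Windows higher in Cy5 were the less stable count, at 7 with loess, 23 with centring on the mode, 4 with probes well above background, 7 with the GC correction, 8 with the deposited values, 33 with 500 bp windows and 0 with trend and robust eBayes. The Cy3 share of calls, 63.9%, was 100% with trend and robust eBayes, 84.0% with probes well above background, 50.7% with 500 bp windows and 51.4% with 2 kb windows. Windows above the Cy3 region threshold, 11, ranged from 10 to 18 without a replicate, the 18 being replicate 1 alone. Pearson r between the arrays, 0.585, was 0.641 with no background correction, 0.538 with the GC correction, 0.527 with 500 bp windows and 0.633 with 2 kb windows. Of the 9 windows higher in Cy3 with a core match, 2 had a match without mismatch, and 0 matched the reversed core. Every one of the 10 highest windows kept its direction and its side of the threshold wherever it was tested. These windows were picked by the main fit of the same arrays, so keeping the call is not independent support. The 5 lowest windows kept their direction, but lost the call with trend and robust eBayes, and the window at 129.9 kb also with probes well above background. The causes were not tested. Gene starts had 0 called windows in every setting tried, out of 3 windows, or 4 when centred on the starts, too few to read. No paired analysis was possible because the arrays form 1 group. With 2 arrays, differences between windows near the median SD of 0.10 could not be resolved. The limit of the test against 0 lay well above that SD. A window with a mean of 0.42 was just called, and one with a mean of 0.46 was not (limma adjusted p = 0.0496 and 0.0568).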
